A study of Drosophila melanogaster with 837 samples.

Results

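Among single cells of 19 to 20 h Drosophila melanogaster embryos, fat-body-like cells that carried reads of the posterior Hox genes abd-A or Abd-B were compared with fat-body-like cells that carried reads of Antp or Ubx and of neither posterior gene. The cells came from Mhc-TAU-GFP embryos, in which a GFP tag reports Myosin heavy chain (Mhc), and were sorted for GFP and for the nuclear stain DRAQ5, with cells that took up DAPI, a sign of damaged membranes, discarded. Each cell was 1 Smart-seq2 library, with primers for the Hox genes added during cDNA synthesis, so that Hox reads are enriched over those of other genes. The labels give every cell the same genotype, age and sort and name no embryo or culture. All cells were therefore treated as 1 sample, and no test between groups was made.

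The fat body is the insect counterpart of liver and adipose tissue: it stores lipid and glycogen, and secretes lipoproteins, storage proteins and basement membrane into the hemolymph. Its cells descend from the mesoderm of many segments. Hox genes encode homeodomain transcription factors that give segments their identity, with Antp acting in the thorax, Ubx in the posterior thorax and anterior abdomen, abd-A in the abdomen and Abd-B in its most posterior segments.

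Detection of a gene means 10 or more of its reads in the cell, and 96.7% of all cells had at least 500 genes detected. Of all cells, 40.4% also held apolpp (the lipoprotein apolipophorin), 35.96% apolpp and FASN1 (a fatty acid synthase), and 35.5% these and prc (pericardin, a collagen-like matrix protein). The limits of fewer than 10 reads of Ppn (papilin) and fewer than 100 of Mhc left 290 fat-body-like cells, 34.6% of the series. Reads of the Hox genes placed 85 of them in the posterior group (10.2% of the series) and 84 in the thoracic group (10.04%), while cells in neither group made up 14.5% of the series. The names are shorthand for the reads, and the position of a cell in the embryo was not measured.

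Because the cells were chosen by these reads, Hox levels are given as a description. The posterior cells held 10 to 1213 reads of whichever of abd-A and Abd-B was higher (median 56), with 18 cells at 10 to 19 reads. The thoracic cells held 10 or more reads of the higher of Antp and Ubx (median 39), with 21 cells at 10 to 19. Just outside the posterior limit, 5 thoracic cells had between 1 and 9 reads of a posterior Hox gene (at most 5) and 79 had 0. Of the cells in neither group, 76 had 0 reads of the 4 genes and 45 had between 1 and 9.

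Antp alone marked 47 cells and Ubx alone 30. In the posterior group 27 cells held abd-A alone, 25 held abd-A with Abd-B, 13 held Ubx with abd-A and 11 held Abd-B alone. Antp with Ubx, without lab, Scr or a posterior gene, was found in 5 thoracic cells. A further 2 cells held both with abd-A, and 1 held both with lab. The Hox gene lab was detected in 4.71% of posterior and 2.38% of thoracic cells, and Scr in none of either. Dfd, taken from the files of the single cells, was detected in 1 posterior and 1 thoracic cell.

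The sort was meant to hold somatic muscle, but muscle markers were low in these cells, while fat body genes were high as a sum. Not every fat body gene with counts was high. Of 20 secreted and storage protein genes 16 were detected widely enough to be compared. Of 23 lipid carrier, droplet and synthesis genes 17 were, and 2 were detected in neither group. The storage and fat body genes Lsp1alpha, Lsp1beta, Lsp2, Fbp1 and Fbp2 and the transferrin gene Tsf1 had no counts to check. The summed level of the 20 secreted and storage protein genes in the table had a median of 77745 counts per 1000000 reads outside ribosomal RNA (CPM) in posterior and 87234 CPM in thoracic cells, against 27157 CPM in cells outside the rule. Much of this sum came from Nplp2, whose means are given below. Adh (alcohol dehydrogenase, abundant in fat body) was detected in 100% and 98.8% of them, and srp (serpent, the GATA factor of fat body and blood) in 92.9% and 95.2%. The 19 muscle genes summed to a median of 45.1 CPM in posterior and 41.1 CPM in thoracic cells, from 0 to 6248 CPM and 0 to 5585 CPM, against 215.8 CPM outside the rule. Since the rule asks for apolpp, FASN1 and prc and limits Mhc, these contrasts with cells outside it were in part set by the choice of cells. Markers of oenocytes, midgut, epidermis, trachea and visceral muscle had a median sum of 0 in both groups. It was 0 outside the rule as well, so these sums do not set the fat-body-like cells apart. Only 3 of the listed oenocyte genes had counts. The hemocyte list was about as high as outside the rule, at 694.2 and 672.4 CPM against 707.95 CPM, with srp and the secreted proteins NimB4 and NimB5 as its 3 genes detected widely enough to be compared. The heart and pericardial list summed to 143.7 CPM in posterior cells (0 to 2249) and 72.8 CPM in thoracic cells (0 to 1348), against 712.6 CPM outside the rule, and zfh1 was its 1 gene compared. Neuron markers were higher in the fat-body-like cells, at 392.97 and 432.06 CPM against 107.9 CPM.

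Depth and ribosomal RNA, which decide how often a gene reaches 10 reads, were close in the groups. The median number of reads outside ribosomal RNA was 542990 in posterior cells (lowest 39302) and 557788 in thoracic cells (lowest 39598). The log2 ratio of the medians was -0.04, against -0.10 ± 1.26 per plate (SD, n = 15 plates, which are not replicate samples). Ribosomal RNA took a median of 37.8% of the reads in posterior and 42.9% in thoracic cells, a difference of -5.11 percentage points, where the plates gave 2.63 ± 20.5 points. Cells of neither group were shallower, with a median of 278501 reads outside ribosomal RNA and a ribosomal RNA share of 48.6%. Each plate held 2 to 10 posterior and 3 to 9 thoracic cells. The posterior share of the cells in both groups was 50.3% (exact Clopper-Pearson 95% interval 42.5 to 58.1) and 48.3% ± 16.2 per plate (22.2% to 76.9%). The intervals reflect counting error alone: the libraries carried no molecular identifiers, so several reads can stem from 1 amplified molecule.

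Of 3232 genes detected in at least 20% of the cells of both groups together, with the Hox genes and the genes of the rule left out, 4.18% had a mean CPM at least 2-fold higher in posterior cells, and 1.95% (63 genes) at least 2-fold higher in thoracic cells. Log2 ratios are of the group means with 1 CPM added, posterior over thoracic, and their median over all genes compared was 0.04. Counts of cells gave the opposite balance. To compare shares at 1 depth, cells were thinned to 124580 reads outside ribosomal RNA, which kept 74 posterior and 78 thoracic cells. In the thinned cells 24 genes (0.743%) were detected in a share at least 20 percentage points higher in thoracic cells, and 9 genes (0.278%) in a share at least 20 points higher in posterior cells. Likewise, 3.87% of the genes had a higher mean log2(CPM + 1) in thoracic cells on 12 or more of the 15 plates, and 0.804% (26 genes) in posterior cells.

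**Figure D1:**
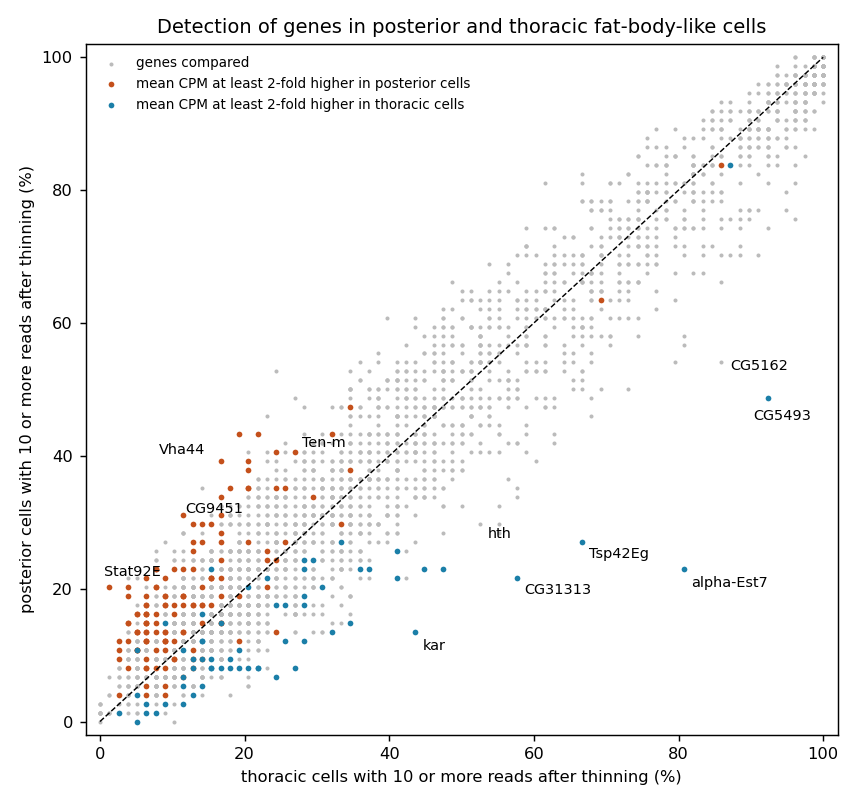
Share of thoracic (x axis) and posterior (y axis) fat-body-like cells with 10 or more reads of each gene after thinning all cells to the same depth, in percent, for the 3232 genes compared. Each point is a gene, coloured where its mean CPM differed at least 2-fold, and the dashed line marks equal shares. alpha-Est7 lies farthest below the line, at 80.8% of thoracic and 22.97% of posterior cells.

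By the share of thinned cells, the gene that differed most was alpha-Est7 (FBgn0015575, chromosome 3R, 7519563 to 7523753, minus strand of the BDGP6 assembly), which encodes an alpha-esterase, a carboxylesterase of the family known for insecticide metabolism. In thoracic cells its level ran from 0 to 2017 CPM, with a median of 288.2 CPM. In posterior cells it ran from 0 to 1188 CPM, with a median of 0. The ranges overlapped, but 64 of 85 posterior cells had no read of it, against 11 of 84 thoracic cells. It was detected in 84.5% of thoracic cells (interval 74.99 to 91.5) and 20.0% of posterior cells (12.1 to 30.1), and the log2 ratio of the means was -2.66. The share was higher in thoracic cells on 15 of 15 plates. Of the cells outside the fat-body-like rule, 16.2% had the gene.

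kar (karmoisin, FBgn0001296, 3R, 12682186 to 12689367), a member of the monocarboxylate transporter family, had the next lowest log2 ratio among the named genes higher in thoracic cells. Its level reached 911 CPM in thoracic cells (median 47.5) and 383.5 CPM in posterior cells (median 0), and 72 posterior and 28 thoracic cells had no read. Detection was 55.95% in thoracic and 12.9% in posterior cells, with a log2 ratio of -2.59, and was higher in thoracic cells on 15 of 15 plates. alpha-Est7 and kar were 2 of the 3 genes whose mean log2(CPM + 1) was higher in thoracic cells on every plate. The third was CG4995, a mitochondrial carrier protein, detected in 86.9% of thoracic and 67.1% of posterior cells (log2 ratio -0.40). In posterior cells no gene had this on every plate, and tweek, known for a role in synaptic vesicle recycling, had it on 14.

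**Figure D2:**
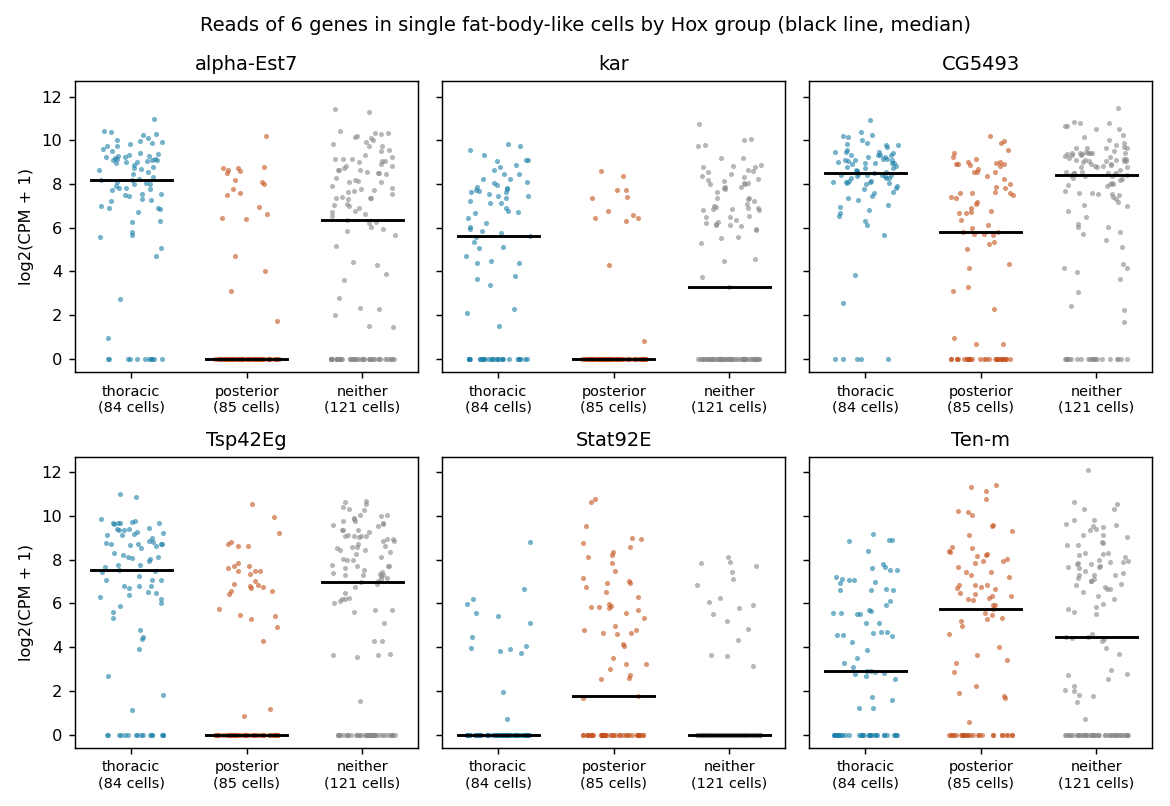
Level of 6 genes in single fat-body-like cells, as log2(CPM + 1), in the 84 thoracic and 85 posterior cells and in cells of neither Hox group, with 1 point a cell and a black line at the median. Most posterior cells lie at 0 for alpha-Est7 and kar, while Stat92E is at 0 in 69 of the thoracic cells.

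In the plot of levels in single cells, alpha-Est7 and kar differ mainly in the number of cells at 0, where a gene that a cell lacks and one that was not captured cannot be told apart. A count of 10 reads corresponds to 18.4 CPM at the median posterior depth, 80.3 CPM at the thinned depth and 254.4 CPM in the shallowest cell, so that kar at its thoracic median, and alpha-Est7 at little less than its own, could be missed in such cells. Tsp42Eg (FBgn0033128, 2R, 7028911 to 7033233) encodes a tetraspanin, a membrane protein with 4 transmembrane segments. It was detected in 76.2% of thoracic and 31.8% of posterior cells, at medians of 182.3 and 0 CPM and maxima of 2053 and 1488 CPM (log2 ratio -1.83, thoracic share higher on 11 plates and lower on 2). CG31313 (3R, 14566432 to 14567429) was detected in 69.05% and 32.9%, with medians of 129.3 and 0 CPM and a log2 ratio of -1.83. Its exons overlap those of CG14852 on the other strand, and the counts carry no strand, so reads of the pair cannot be told apart.

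CG5493, a cysteine dioxygenase, had the second widest gap in thinned shares and was named for it after its values were seen. It was detected in 89.3% of thoracic and 55.3% of posterior cells, with medians of 366.1 and 54.1 CPM and a log2 ratio of -1.31, and its mean log2(CPM + 1) was higher in thoracic cells on 14 plates. Its exons overlap those of CG5327 on the other strand. CG5162, a lipase, was detected in 83.3% and 56.5%, but its mean, at 1522 and 822.4 CPM, differed less (log2 ratio -0.89). Oatp30B, an organic anion transporter, was higher in thoracic cells on 14 plates, with a log2 ratio of -1.44 and detection of 65.5% and 47.1%. CG6330, a uridine phosphorylase, was detected in 54.8% and 29.4% (log2 ratio -1.07). Gdh, glutamate dehydrogenase, showed mainly a gap in share, at 88.1% and 68.2%, with a log2 ratio of -0.26. CG5162, Oatp30B, CG6330, CG4995, tweek and Gdh too were picked out after their values were seen. Exons of tweek and Gdh overlap other genes.

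The other genes at the thoracic end were found in fewer cells. Irk1, an inwardly rectifying potassium channel, was detected in 42.9% of thoracic and 17.6% of posterior cells (log2 ratio -1.94), and LManII, a lysosomal alpha-mannosidase, in 38.1% and 15.3% (-1.71). CG11425 was detected in 47.6% and 20.0% (-1.66) and CG34348 in 30.95% and 12.9% (-1.54). The pseudogene CR43275 (-1.98), regucalcin (-1.95) and lqf, an epsin of endocytosis (-1.60), showed smaller gaps in share, at 72.6% and 61.2%, 36.9% and 30.6%, and 33.3% and 27.1% in turn. For mRpL33, a mitochondrial ribosomal protein with a log2 ratio of -1.70, 1 cell gave 54.3% of all thoracic CPM, and the direction turned with the Hox limit at 5 reads (log2 ratio 0.59). Exons of Irk1, regucalcin, lqf and CG34348 overlap genes on the other strand.

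At the posterior end, Stat92E (FBgn0016917, 3R, 20535323 to 20552311) had the highest log2 ratio, 3.13. It encodes the STAT transcription factor of the JAK/STAT pathway. Its mean was 101.7 CPM in posterior and 10.7 CPM in thoracic cells, with maxima of 1740 and 447.4 CPM and medians of 2.36 and 0 CPM. It was detected in 38.8% of posterior cells (interval 28.4 to 50.01) and 13.1% of thoracic cells (6.72 to 22.2), and in more posterior than thoracic cells on 12 plates and fewer on 2. A single cell gave 49.8% of all thoracic CPM of Stat92E, and the log2 ratio was 4.35 without plate 8. At equal depth it was detected in 20.3% of posterior and 1.28% of thoracic cells.

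Other genes of the JAK/STAT pathway were listed after the value of Stat92E was seen. Of them, Socs16D had a log2 ratio of 2.10, with detection in 18.8% of posterior and 8.33% of thoracic cells, below the filter. A single cell gave 40.2% of the posterior CPM of Socs16D, and its thinned shares were 8.11% and 3.85%. Socs44A, whose exons overlap genes on the other strand, was detected in 27.1% and 19.05% (log2 ratio 0.34). The receptor gene dome was detected in 15.3% of posterior and 13.1% of thoracic cells and the kinase gene hop in 16.5% and 16.7%, with log2 ratios of -0.10 and -0.13. Socs36E, a feedback inhibitor that STAT induces, was detected in 34.1% and 32.1% (log2 ratio 0.79). There 1 cell gave 34.6% of the posterior CPM, and the thinned shares were 17.6% and 19.2%. The ligand gene upd3 was detected in 2 posterior cells and in 0 of 84 thoracic cells, which allows a share of up to 4.30% (exact interval). chinmo, a transcription factor gene regulated by the pathway in other fly tissues, was detected in 100% and 98.8%, at 1248 and 1200 CPM.

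Ten-m, a teneurin cell surface protein, was detected in 60% of posterior and 36.9% of thoracic cells, with medians of 52.7 and 6.46 CPM and a log2 ratio of 1.98. Its share was higher in posterior cells on 10 plates and lower on 5. Vha44, a subunit of the vacuolar proton pump, was detected in 50.6% and 33.3% (log2 ratio 1.91), and the GTPase gene Rac2 in 35.3% and 26.2% (1.92). CG34215 (2.76), CG9451 (2.32), Rcd1 (2.22), CG4199 (2.03) and Shawn, a mitochondrial carrier (1.85), were each detected in 30.6% to 32.9% of posterior and 11.9% to 17.9% of thoracic cells. Of the 12 genes named at this end only Ten-m, Vha44 and Stat92E had a posterior median above 0. Exons of Vha44, CG4199, Ten-m and Shawn overlap other genes.

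The last 3 genes at this end rested on single cells. 1 cell gave 57.7% of the posterior CPM of Tet (a TET family dioxygenase), 51.1% of that of Tailor (a terminal uridylyltransferase) and 48.3% of that of tay. tay was detected in 22.4% of posterior and 20.2% of thoracic cells, and its direction turned in cells under 50% ribosomal RNA (log2 ratio -0.69). CG17493 and CG1722 had ratios as high but were passed over, since their thinned shares were lower in posterior cells. At equal depth, Phm, a peptide-amidating enzyme, was detected in 52.7% of posterior and 24.4% of thoracic cells, and PHGPx, a glutathione peroxidase, in 43.2% and 21.8%. CG9449, which lies beside CG9451 on 3L, was detected in 60.8% and 39.7% of thinned cells, although in all cells its shares were 62.4% and 58.3%. These 3 were named after their values were seen. Exons of Tailor and Phm overlap genes on the other strand.

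**Figure D3:**
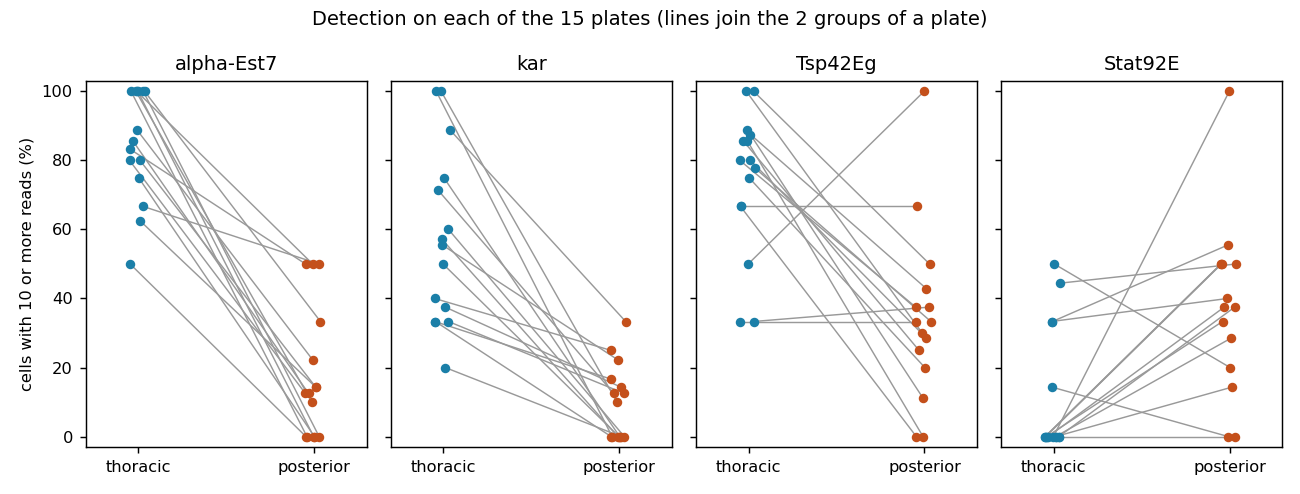
Share of thoracic and posterior fat-body-like cells with 10 or more reads of 4 genes on each of the 15 plates, in percent, with a line joining both groups of a plate. Each line for alpha-Est7 and kar runs down from thoracic to posterior cells, while lines for Tsp42Eg and Stat92E run in both directions on plates with few cells.

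The plot by plate gives the spread over plates, which are not replicate samples. Each plate held few cells of a group, so this spread also holds the chance of which cells fell on a plate. alpha-Est7 was found in 50% to 100% of the thoracic cells of a plate and in 0% to 50% of the posterior cells. On plate 11 the gap was narrowest, with 2 of 3 thoracic and 4 of 8 posterior cells positive.

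Finer Hox classes split each group by its more posterior gene. The thoracic group held 48 cells with Antp but not Ubx and 36 with Ubx, and the posterior group 45 with abd-A but not Abd-B and 40 with Abd-B. Their median depths were 586594, 521166, 433143 and 643471 reads outside ribosomal RNA. Thinned to equal depth, alpha-Est7 was detected in 36 of 44 cells (81.8%, interval 67.3 to 91.8), 27 of 34 (79.4%, 62.1 to 91.3), 15 of 38 (39.5%, 24.04 to 56.6) and 2 of 36 (5.56%, 0.680 to 18.7) of these classes in turn. The Antp and Ubx classes had overlapping intervals, while that of the Abd-B class lay below all the others. This is a description and no test of the classes. The intervals count cells of 1 sample, and the gene was picked by its gap between the groups. Without thinning, 15 of 45 abd-A cells and 2 of 40 Abd-B cells held the gene, at mean levels of 108.6 and 14.25 CPM.

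CG31313 was graded in the same order, at 68.2%, 44.1%, 34.2% and 8.33% of thinned cells. hth (homothorax), which encodes a homeodomain cofactor of Hox proteins, was detected in 63.6%, 38.2%, 39.5% and 19.4%. Over the groups hth was detected in 83.3% of thoracic and 55.3% of posterior cells, with a log2 ratio of -0.95. Its share was higher in thoracic cells on 12 plates, and its exons overlap a gene on the other strand. kar was highest in the Ubx class, at 34.1%, 55.9%, 18.4% and 8.33%, and CG5493 too, at 88.6%, 97.1%, 55.3% and 41.7%. For both the intervals of Antp and Ubx overlapped, as did those of abd-A and Abd-B, while those of Ubx and abd-A did not. For kar those of Antp and abd-A overlapped as well. As cells are no replicates, a gap between intervals is no test between classes. LManII was highest in the Antp class, at 31.8%, 8.82%, 7.89% and 8.33%, but its Antp interval overlapped those of the other classes.

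Stat92E was detected in 1 of 44 Antp cells (2.27%) and 0 of 34 Ubx cells, which allows a share of up to 10.3%, against 7 of 38 abd-A cells (18.4%) and 8 of 36 Abd-B cells (22.2%). CG9451 was at 9.09%, 17.6%, 34.2% and 25% in the same order. Ten-m ran from 29.5% and 23.5% to 34.2% and 47.2%, with intervals that overlapped throughout. Lsd-1, the lipid droplet protein perilipin, was at 84.1%, 85.3%, 84.2% and 86.1%, and svp (a nuclear receptor of fat body) at 70.5%, 73.5%, 71.1% and 58.3%.

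**Figure D4:**
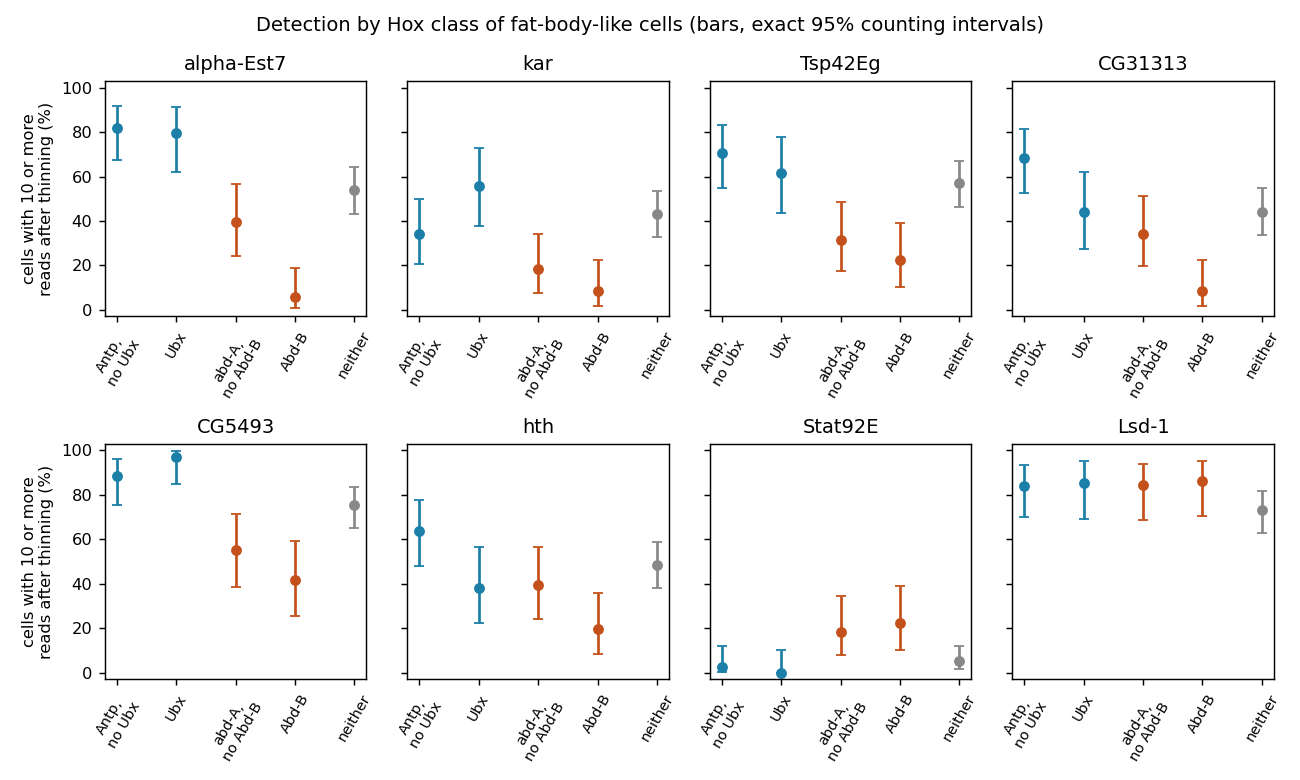
Share of thinned fat-body-like cells with 10 or more reads of 8 genes, in percent, by Hox class from Antp to Abd-B and in cells of neither group, with exact 95% counting intervals. alpha-Est7 goes from 81.8% in the Antp class to 5.56% in the Abd-B class, Stat92E from 2.27% to 22.2%, and Lsd-1 lies between 84.1% and 86.1% in all 4 Hox classes.

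Cells of neither Hox group lay between the groups for alpha-Est7 (53.8% of thinned cells), Tsp42Eg (56.99%), kar (43.01%) and CG5493 (75.3%). For Stat92E (5.38%) they were nearer to the thoracic cells, and for Ten-m (43.01%) nearer to the posterior ones.

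Within the posterior group, 19 cells also carried Antp or Ubx. alpha-Est7 was detected in 9 of them (47.4%, interval 24.4 to 71.1) and in 8 of the other 66 (12.1%, 5.38 to 22.5). kar was detected in 31.6% and 7.58%, CG31313 in 57.9% and 25.8%, and Ten-m in 31.6% and 68.2%. Tsp42Eg was at 36.8% and 30.3%. The classes above differ between these cells, since 17 of the 19 lacked Abd-B and 38 of the other 66 carried it. Among posterior cells without Abd-B, a split made after the values were seen, alpha-Est7 was detected in 9 of 17 with Antp or Ubx (52.9%, interval 27.8 to 77.02) and 6 of 28 without (21.4%, 8.30 to 40.95), and these intervals overlap.

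The leading thoracic genes were counted per cell as a description, since they were chosen for being higher in thoracic cells. Of alpha-Est7, kar, CR43275, regucalcin, Irk1 and Tsp42Eg, a thoracic cell held a median of 4 and a posterior cell a median of 2. None of them was detected in 17 posterior and 3 thoracic cells, and all 6 in 0 posterior and 8 thoracic cells.

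Related genes did not follow the leading ones throughout. alpha-Est8, near alpha-Est7, was detected in 59.5% of thoracic and 36.5% of posterior cells but had a log2 ratio of -0.34, and alpha-Est1 was detected in 46.4% and 44.7% (0.08). In the Tsp42E cluster, Tsp42Ej was detected in 17.9% of thoracic and 2.35% of posterior cells, with exons that overlap those of Tsp42Ek, whereas Tsp42Ee was at 53.6% and 56.5% and Tsp42Ef at 27.4% and 25.9%. Near kar, Gnmt (glycine N-methyltransferase) was detected in 58.3% and 34.1%.

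Outside the fat-body-like rule, 33 cells met the posterior and 59 the thoracic condition, at median depths of 413571 and 329316 reads. alpha-Est7 was detected in 9.09% (interval 1.92 to 24.3) of the posterior and 11.9% (4.91 to 22.9) of the thoracic ones. The gap in share seen in fat-body-like cells, 20.0% against 84.5%, was thus not found here. Its means were 11.2 and 73.6 CPM, a log2 ratio of -2.61 beside -2.66 in fat-body-like cells, but with only 3 posterior and 7 thoracic cells positive. kar was detected in 6.06% and 15.3% (log2 ratio -2.73), and CG31313 in 3.03% and 16.9%, with means of 0.702 and 272.5 CPM. Tsp42Eg was at 45.5% and 69.5% (-1.23) and CG5493 at 9.09% and 15.3% (-1.75). These 5 genes thus had the same order as in fat-body-like cells, with overlapping intervals of the shares and, but for Tsp42Eg, at most 10 positive cells a group. The order did not hold throughout. Among the 12 genes named at the thoracic end, CG34348 (log2 ratio 2.81), lqf (0.81) and mRpL33 (0.14) were higher in posterior cells here. Of the 12 named at the posterior end only Tailor (3.04), Shawn (2.45) and Tet (1.56) were again higher in posterior cells, while CG9451 was at -4.67 and CG4199 at -2.89. hth was at 36.4% and 47.5% with a log2 ratio of 0.18, and Stat92E at 45.5% and 44.1% with one of -0.46, against 3.13 in fat-body-like cells.

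Genes of the general fat body programme were then counted by list, beside 4.18% of all genes compared that were 2-fold higher in posterior and 1.95% in thoracic cells. At these shares, a list of this size holds few or no such genes, so that the counts set no list apart. Among lipid carrier, droplet and synthesis genes 0 of 17 compared were 2-fold different in either direction, with a median log2 ratio of 0.09 beside 0.04 over all genes. Apoltp, which transfers lipid between lipoproteins, was at 504.2 and 517.3 CPM in posterior and thoracic cells, Lsd-1 at 771.5 and 744.4 CPM, and ACC (acetyl-CoA carboxylase) at 1320 and 1225 CPM. Of 28 genes of amino acid, glycogen and sugar metabolism, none was 2-fold different (median 0.04). Men, the malic enzyme, had the highest ratio there, 0.83, and fbp (fructose-1,6-bisphosphatase) the lowest, -0.50.

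Of 16 secreted and storage protein genes, 1 was 2-fold higher in thoracic cells and none in posterior cells, and the median was -0.15. The 1 gene, phu (-1.06), was detected in 38.1% and 25.9% of thoracic and posterior cells. Nplp2, whose product is abundant in the hemolymph, had means of 46273 and 40173 CPM, and Tep2, a thioester-containing immune protein, was just short of the limit, at 113.9 CPM in posterior and 56.5 CPM in thoracic cells. For basement membrane, 1 of 12 genes passed the limit, PH4alphaEFB (a collagen prolyl hydroxylase, 1.22), which was nevertheless detected in fewer posterior cells, 21.2% against 27.4%. The collagen IV genes Col4a1 and vkg both had ratios of 0.02.

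Among 18 regulators of fat body and nutrient state, Thor (4E-BP, the translation inhibitor downstream of insulin and TOR signalling) was 2-fold higher in posterior cells, at 329.9 and 145.3 CPM (ratio 1.18), with detection of 45.9% and 41.7%. Ilp6, the insulin-like peptide of fat body, had a ratio of -0.75 and ImpL2, an insulin-binding protein, of -0.74. ERR, the estrogen-related nuclear receptor, had -0.60, with 73.1% of thoracic and 50% of posterior cells positive after thinning. Its exons overlap genes on the other strand. Glycolysis genes had a median of 0.28, beside 0.04 over all genes compared. Of them 9 of 11 were above 0 and none was past the limit, with PyK (pyruvate kinase, 0.76) the highest.

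Chromatin and signalling genes were mostly below the filter. Of 28 Polycomb and Trithorax group genes 8 could be compared and none was 2-fold different (median 0.36), with trx at 0.91 and Psc at -0.95. Of 32 homeodomain genes outside the Hox cluster 3 could be compared, hth, mirr (-0.03) and zfh1 (0.49). Of 21 secreted signal genes 4 could be compared, and Pvf3, a VEGF-like ligand, was past the limit at 1.09. The 3 genes compared among Hox targets known from other tissues lay between -0.05 and 0.13. Of 2 cell cycle genes compared, stg (the Cdc25 phosphatase) had a ratio of 1.28, with shares of 25.9% and 26.2% in posterior and thoracic cells, and E2f1 had 0.97. None of 20 immunoglobulin-type recognition genes passed the filter.

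Ribosomal protein genes had a median log2 ratio of -0.13, and the 64 oxidative phosphorylation genes one of -0.06, beside 0.04 over all genes compared. Of the ribosomal protein genes 11 of 84 were above 0 and none was 2-fold different. The 13 heat shock genes had a median of 0.33 and none was past the limit, with Hsp70Aa at 1296 CPM in posterior and 1028 CPM in thoracic cells, a gene whose reads can be split among near-identical copies. The part of these levels, and of the marker sums and ribosomal RNA shares given above, in the differences between the groups was not tested.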

How the data were processed

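The deposited table holds whole-number estimated counts per gene (8862 genes), which the authors made with kallisto 0.43.0 against the BDGP6 Ensembl cDNA. R 3.5.1 is also named in the submitters' processing notes. Per-cell files hold estimated counts and TPM per transcript, as deposited. TPM summed to genes served 1 alternative. CPM was taken over reads outside 11 ribosomal RNA features, in Python 3.11.15 with pandas 2.3.3. Genes were compared if detected at 10 reads in at least 20% of both groups' cells together. Of 837 cells 809 passed the filter on genes, 121 fat-body-like cells fell in neither group and 519 cells lay outside the rule, and 135 genes were 2-fold higher in posterior cells. Cells are parts of 1 pooled sort, so ratios, shares and exact intervals were given with no test, after scripts were tested on simulated data. No doublet caller was run, and no 2 cells had identical counts. Coordinates are from Ensembl release 115 of the same assembly.

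Named genes were the 12 with the highest and the 12 with the lowest log2 ratio whose thinned share differed in the same direction and whose mean log2(CPM + 1) did so on at least 60% of plates, besides Hox genes, rule genes and listed genes. The members and lists were chosen with earlier results of these data known. Alternatives covered the Hox and rule limits, the ribosomal RNA share, scaling, thinning, pseudocount, filter, means, TPM and leaving out plates.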

Additional observations from a re-analysis of the deposited data

How the results depend on the processing

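The share of genes past the 2-fold limit depended on the processing. In each alternative run more genes were at least 2-fold higher in posterior cells than were at least 2-fold higher in thoracic cells. With posterior cells that carried Antp or Ubx left out, 3.05% of the genes compared were 2-fold higher in thoracic cells, and with Hox genes at 20 reads 6.41% were higher in posterior cells. The shares for posterior and thoracic cells were 2.57% and 0.774% with library size over all reads, 2.20% and 0.959% with 10 CPM added, 2.19% and 0.657% in TPM, 8.69% and 4.20% with a filter at 10% of cells, and 17.7% and 9.58% with no filter. Without 1 plate they ran from 3.87% to 5.07% and from 1.86% to 2.55%. The posterior share, the ratio of depths and the difference in ribosomal RNA moved by less than their interval or plate spread. Of the 24 named genes 18 were at least 2-fold different throughout, and all values but 2 kept their direction: mRpL33 was at 0.59 with Hox genes at 5 reads and tay at -0.69 in cells under 50% ribosomal RNA. Irk1, lqf, Tailor and Tet came below 2-fold under at least 1 alternative, as did these 2. alpha-Est7 ranged from -3.71 to -2.21 and kar from -3.81 to -2.02. No paired analysis was possible because the labels put all cells in 1 group and pair no samples, and differences between Hox groups within plates stand in the report. Since 10 reads are 80.3 CPM at the thinned depth and 254.4 CPM in the shallowest cell, absence from a cell was not detectable below these levels, both above the thoracic median of kar.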
